A study of Mus musculus with 10 samples.

Results

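The genes described here are the mouse microRNA precursor genes that gave signal on expression arrays of T helper cells: every gene whose symbol in the platform's probe table begins with Mir and a digit, or with Mirlet, and whose mean over the 10 arrays was 4.5 or more on the log2 scale. Only probe sets with a single symbol were used, and the probe set with the highest mean stood for a gene. 70 of 483 microRNA genes with such a probe set (14.5%) met the threshold, and the other 413 lay below it. Of all 22180 genes, 34% had a mean of 4.5 or more. The 70 genes were thus chosen by their mean over all arrays, and no difference between cultures entered the choice. The genes just inside the threshold were Mir196a-1, Mir345, Mir677 and Mir665, with means of 4.51, 4.54, 4.56 and 4.57. Just outside lay Mir3060, Mir669j, Mir191 and Mir341, with means of 4.4999, 4.49, 4.40 and 4.38.

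The cells were CD4+ spleen lymphocytes of wild-type female BALB/c mice aged 10 to 14 weeks, and all cultures received anti-CD3 at 4 µg/ml and anti-CD28 at 30 ng/ml, antibodies that stimulate T cells. Th17 cultures (n = 4) also received IL-6 at 20 ng/ml, TGFβ at 5 ng/ml, IL-23 at 10 ng/ml and anti-IFNγ at 10 µg/ml. Th2 cultures (n = 3) received IL-4 at 100 ng/ml and the same anti-IFNγ. Th0 cultures (n = 3) had neither cytokine nor anti-IFNγ, so the polarising cytokines and anti-IFNγ cannot be told apart in a comparison with Th0. The medium was exchanged at 72 h, and no source used here gives the hour of harvest. For Th2 replicate 3, numbered as in its title, the description gives the number 4. Replicates are titled biological, yet whether each had its own animal is not stated, and the p-values thus reflect only how far these cultures varied.

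MicroRNA genes are transcribed as long primary transcripts, alone, in clusters or inside an intron of a host gene. Drosha cuts a hairpin out of the transcript, Dicer cuts the hairpin to a mature strand, and an Argonaute protein carries that strand to messenger RNAs that pair with its seed, bases 2 to 8. In T helper cells microRNAs tune receptor signalling, proliferation and the choice between effector fates. The probe sets are named for precursor genes, and mature strands were not analysed here. Which stretch of each transcript a probe set matches is not stated in these sources, and whether other RNA also binds it was not tested. In cultures measured in bulk, fewer cells of a type and less RNA per cell cannot be told apart.

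All 70 symbols were found among RefSeq's genes (assembly GRCm38.p6), and 55 had a sequence in RefSeq's microRNA table of the same build. The mature strands of the genes on which the results turn are given 5′ to 3′, with the seed in capitals. The first set belongs to the miR-17 to miR-92 cluster, whose 3 members had the largest Th2 minus Th0 differences, none of which passed the test.
mmu-miR-17-5p: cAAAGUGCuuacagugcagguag
mmu-miR-20a-5p: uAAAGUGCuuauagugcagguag
mmu-miR-18a-5p: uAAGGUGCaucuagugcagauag
The strands of Mir17 and Mir20a share the seed AAAGUGC and were identical at 21 of 23 bases. The strand of Mir18, named miR-18a in RefSeq, has another seed and was identical to miR-17-5p at 17 of 23 bases and to miR-20a-5p at 19 of 23. The other members known in T cells are shown because their precursors could be compared between cultures.
mmu-miR-142a-5p: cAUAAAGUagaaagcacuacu
mmu-miR-142a-3p: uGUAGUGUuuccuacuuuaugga
mmu-miR-15a-5p: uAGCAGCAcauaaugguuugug
mmu-miR-181c-5p: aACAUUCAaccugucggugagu
mmu-miR-210-3p: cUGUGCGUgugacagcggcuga
The next strands belong to single genes described for their differences between cultures, none past the test, or for their spread over the arrays.
mmu-miR-5123: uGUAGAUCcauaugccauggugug
mmu-miR-2137: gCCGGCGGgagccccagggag
mmu-miR-703: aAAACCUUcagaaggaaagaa
mmu-miR-101c: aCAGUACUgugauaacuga
mmu-miR-680: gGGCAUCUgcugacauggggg
mmu-miR-103-3p: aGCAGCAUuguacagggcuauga
The strand miR-680 is the same 21 bases for Mir680-1, Mir680-2 and Mir680-3. Their hairpins have 109, 110 and 87 bases. The aligned hairpins were identical at 96 of 116 columns for Mir680-1 and Mir680-2, and at 55 of 131 for Mir680-1 and Mir680-3. Those columns include gaps and overhanging ends, so the counts are not shares of paired bases. Among the genes with a mature strand in RefSeq's microRNA table, the only other shared seed was CACUGAG.
mmu-miR-3473d: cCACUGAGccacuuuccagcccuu
mmu-miR-674-5p: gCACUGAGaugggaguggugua

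The genes that define the cultures passed the test only in part, and arrays of one group also stood apart from each other. Il17f, a Th17 cytokine gene, was 4.85 higher in Th17 than in Th0 cultures (SE 0.353, limma adjusted p = 0.000676), and Gata3, the Th2 regulator, was lower in Th17 than in Th0 by a log2 difference of -1.92 (adjusted p = 0.0381). The test did not bear out the Th2 label against Th0, but it called no gene at all in that comparison. Gata3, Il4 and Il5, which mark Th2 cells, had differences of -0.23, 0.71 and 1.3 (adjusted p = 0.927, 0.819 and 0.767). That of Il13 was 0.27 (adjusted p = 0.940). Il5 was higher on every Th2 array (5.70, 6.61 and 6.51) than on any Th0 array (5.275, 4.26 and 5.40), and 8.43% of all genes were free of overlap. Gata3, Il4 and Il13 overlapped between Th2 and Th0. Il17a missed between Th17 and Th0 (4.22, adjusted p = 0.180). On the first principal component of all genes (35.8% of the variance), Th17 replicate 4, Th2 replicate 2 and Th2 replicate 3 lay at 37.5, 38.8 and 55.8, while the other 7 arrays lay between -34 and -0.96. On these 3 arrays the mean of 9 T cell identity genes was 8.56, 8.70 and 8.71, against 8.97 to 9.53 on the others. The mean of 8 basophil and mast cell markers was 6.20 and 6.16 on Th17 replicates 2 and 3 and 7.34 on Th0 replicate 1, against 3.60 to 4.77 on the other 7. Th2 replicate 1 had the lowest median over all probe sets, 3.393, and Th2 replicate 3 the highest, 3.606.

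No microRNA gene passed the test in any comparison. With limma at an adjusted p under 0.05, the count was 0 of 70 for Th17 against Th0, where 0.104% of all genes were called. It was 0 of 70 for Th2 against Th0, where 0% of all genes were called, and 0 of 70 for Th17 against Th2, where 0.0766% of all genes were called. At an unadjusted p under 0.05 the microRNA genes numbered 2 (2.86%, against 5.17% of all genes), 6 (8.57%, against 6.34%) and 5 (7.14%, against 6.25%) in the same order of comparisons. The lowest adjusted p of any microRNA gene was 0.879 for Mir5123 between Th17 and Th0, 0.767 for Mir18 between Th2 and Th0, and 0.444 for Mir18 between Th17 and Th2. Both comparisons with Th0 use the same 3 control arrays.

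The median differences of the 70 genes were smaller than the spread between replicates, since the SD within groups of their centred median was 0.215. Of the 70 genes, 43 had a higher mean in Th17 than in Th0 and 27 a lower one, with a median log2 difference of 0.10 (all genes -0.02). Between Th2 and Th0, 47 were higher and 23 lower, with a median of 0.14 (all genes -0.01). Between Th17 and Th2, 33 were higher and 37 lower, with a median of -0.05 (all genes -0.01). Without the 3 arrays that stood apart on the first component, the medians were 0.03, -0.11 and 0.17, so the sign turned for Th2 against Th0 and for Th17 against Th2, with Th2 replicate 1 as the only Th2 array.

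**Figure D1:**
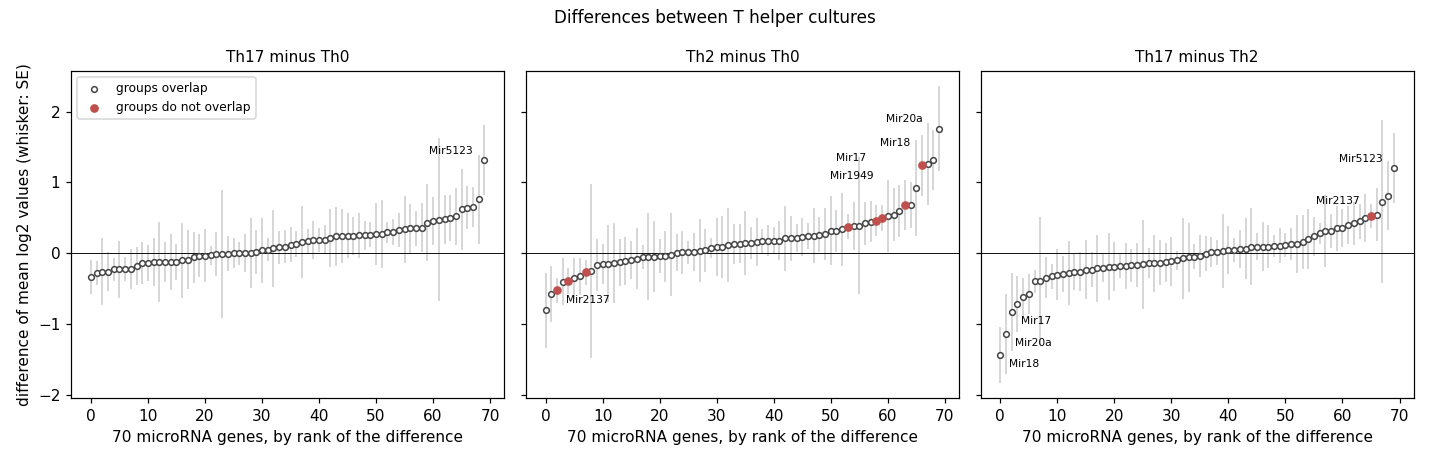
Log2 difference of group means (y axis, whiskers: SE of the limma fit) for the 70 microRNA genes, ranked along the x axis, for Th17 minus Th0, Th2 minus Th0 and Th17 minus Th2. Filled red points are genes whose groups do not overlap: 0 genes on the left, 8 in the middle and 1 on the right.

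Mir17, Mir18 and Mir20a are made from one primary transcript, the miR-17 to miR-92 cluster, which is known to drive expansion and survival of lymphocytes. They gave the 3 largest log2 differences of the 70 genes between Th2 and Th0 cultures, 1.26 ± 0.585, 1.32 ± 0.422 and 1.76 ± 0.606 (SE), and none passed the test. Without Th2 replicate 2 they were 0.726, 0.965 and 1.09, and without Th0 replicate 1 that of Mir17 was 0.818. Mir18 measured 5.47, 5.51, 5.26 and 6.03 in Th17 replicates 1 to 4, 5.85, 7.73 and 7.46 in Th2 replicates 1 to 3, and 5.54, 5.40 and 6.13 in Th0 replicates 1 to 3. Th2 replicates 2 and 3 were above every other array, and Th2 replicate 1 lay among the Th17 and Th0 arrays. The adjusted p of Mir18 was 0.767 for Th2 against Th0, and 0.444 for Th17 against Th2, where the log2 difference was -1.44 ± 0.395 (SE). Th17 and Th0 means were 5.57 ± 0.326 (SD, n = 4) and 5.69 ± 0.387 (SD, n = 3), a log2 difference of -0.12.

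Mir20a measured 4.82, 4.90, 4.69 and 5.74 in Th17 cultures, 4.82, 7.52 and 6.20 in Th2 cultures, and 3.44, 4.81 and 5.01 in Th0 cultures. Again Th2 replicates 2 and 3 were the highest of the 10 arrays, and Th2 replicate 1 was inside the range of both other groups. The adjusted p was 0.767 for Th2 against Th0 and 0.845 for Th17 against Th2 (log2 difference -1.14). Mir17 measured 5.52, 4.77, 4.47 and 6.25 in Th17 cultures, 5.36, 7.16 and 5.73 in Th2 cultures, and 3.93, 4.78 and 5.75 in Th0 cultures. Only Th2 replicate 2 stood above all other groups' arrays, and the adjusted p was 0.792 for Th2 against Th0 and 0.917 for Th17 against Th2.

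Mir19a, a neighbour in the same cluster, had a mean of 2.91 and so fell below the threshold. It measured 2.67, 2.67, 2.28 and 2.53 in Th17 cultures, 2.87, 4.70 and 3.25 in Th2 cultures, and 2.87, 2.71 and 2.52 in Th0 cultures. All 4 genes of the cluster were highest on Th2 replicate 2. On every other array Mir19a lay below that array's median over all probe sets, so its order among those arrays was not read. The Mir19a difference was 0.91 between Th2 and Th0 (adjusted p = 0.767) and -1.07 between Th17 and Th2 (adjusted p = 0.606).

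**Figure D2:**
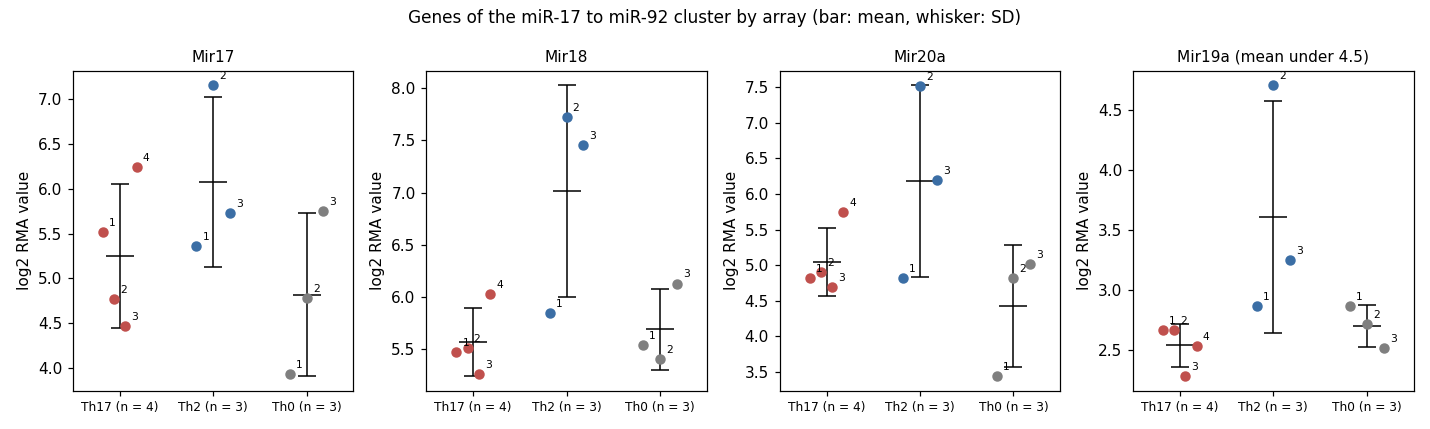
Log2 values of Mir17, Mir18, Mir20a and Mir19a (y axes, each panel with its own range) by array for Th17 (n = 4), Th2 (n = 3) and Th0 (n = 3), with the group mean as a bar and the SD as a whisker. The numbers beside the points are replicates, and Th2 replicate 2 is the highest point in all 4 panels, at 7.16, 7.73, 7.52 and 4.70.

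The arrays used decide whether the cluster's difference is called. Without Th2 replicate 1, Mir18 rose in Th2 relative to Th0 by 1.90 ± 0.268 (SE, limma adjusted p = 0.0187) and Mir20a by 2.44 ± 0.509 (adjusted p = 0.0418), in a fit that called 1.94% of all genes. In the same fit Mir18 fell in Th17 relative to Th2, with a log2 difference of -2.03 ± 0.255 (adjusted p = 0.00856), where 1.34% of all genes were called. With array weights estimated by limma, Mir18 passed between Th17 and Th2 only (-1.95 ± 0.312, adjusted p = 0.0183), with 1.49% of all genes called. The Th2 arrays left in the first fit, replicates 2 and 3, are those that stood apart together with Th17 replicate 4. Without all 3 of these arrays the Th2 minus Th0 differences were 0.54 for Mir17, 0.16 for Mir18 and 0.40 for Mir20a, with adjusted p-values of 0.932, 0.949 and 0.934. The Th2 group was then replicate 1 alone, assumed to vary like the other groups, so these p-values say little. The Th17 array among them, replicate 4, measured 6.03 for Mir18 against 7.73 and 7.46 on those Th2 arrays. For Mir20a it measured 5.74 against 7.52 and 6.20, and for Mir17 6.25 against 7.16 and 5.73. Th17 replicate 4 was the highest Th17 array for each of these genes, and for Mir17 it lay above Th2 replicate 3.

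8 microRNA genes did not overlap between Th2 and Th0 cultures (11.4%, against 8.43% of all genes), 5 of them higher in Th2 (7.14%, against 4.48%) and 3 lower (4.29%, against 3.94%). These shares were near those of all genes. Mir1949 had the largest difference among them, with 5.57, 6.72 and 6.17 in Th2 cultures against 3.92, 5.32 and 5.50 in Th0 cultures. The lowest Th2 array lay just above the highest Th0 array, and the log2 difference was 1.24 ± 0.43 (SE, adjusted p = 0.767), or 0.743 without Th0 replicate 1. Its Th17 values of 6.004, 4.88, 5.49 and 5.37 overlapped both groups.

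Mir5099 measured 10.93, 11.01 and 11.05 in Th2 cultures against 9.34, 10.78 and 10.83 in Th0 cultures. Th0 replicate 1 lay far below the other arrays, and without it the log2 difference was 0.19 in place of 0.68 (adjusted p = 0.803 with all arrays). Mir703 measured 9.39, 9.26 and 8.92 in Th2 cultures against 8.79, 8.73 and 8.56 in Th0 cultures, a log2 difference of 0.50 ± 0.188 (SE, adjusted p = 0.767). The gap between its groups was narrower than the spread within the Th2 group. Mir1954 and Mir3473d were also higher on every Th2 array than on any Th0 array, by 0.46 and 0.37 (adjusted p = 0.793 and 0.794).

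Mir2137 was the only microRNA gene whose Th2 arrays lay apart from both other groups. It measured 6.13, 5.92, 6.24 and 5.83 in Th17 cultures, 5.59, 5.50 and 5.42 in Th2 cultures, and 5.75, 6.07 and 6.28 in Th0 cultures. All 3 Th2 arrays were below all 7 others. The log2 difference was -0.53 ± 0.176 (SE) for Th2 minus Th0 (adjusted p = 0.767) and 0.53 ± 0.165 for Th17 minus Th2 (adjusted p = 0.583), and that of Th17 minus Th0 was -0.0015. It was also the 1 gene without overlap between Th17 and Th2 (1.43%, against 5.6% of all genes). Without the 3 arrays that stood apart, its difference was -0.44 for Th2 minus Th0 and 0.50 for Th17 minus Th2, on a single Th2 array. Its host gene Zfp185 had a mean of 3.16 and a Th2 minus Th0 difference of -0.02.

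The other genes lower on every Th2 array were Mir1956 and Mir378b. Mir1956 measured 7.16, 7.22 and 7.42 in Th2 cultures against 7.55, 7.96 and 7.48 in Th0 cultures, a log2 difference of -0.40 (adjusted p = 0.785), or -0.247 without Th0 replicate 2. Its host gene Eif4e, which encodes the protein that binds the cap of messenger RNA, differed in the other direction, by 0.43 (adjusted p = 0.793). Mir378b measured 5.32, 5.31 and 5.22 in Th2 cultures against 5.61, 5.49 and 5.56 in Th0 cultures, a log2 difference of -0.27 (adjusted p = 0.836).

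Between Th17 and Th0 cultures 0 of 70 genes were free of overlap (7.57% of all genes were). The largest difference was that of Mir5123, which lies in the host gene B4galt1, a galactosyltransferase of the Golgi apparatus, and was picked after its values were seen. Mir5123 measured 6.60, 6.90, 5.98 and 6.60 in Th17 cultures, 6.07, 5.31 and 4.57 in Th2 cultures, and 3.89, 6.11 and 5.61 in Th0 cultures. The Th17 arrays were at the top of the range, but Th17 replicate 3 lay below Th0 replicate 2 and Th2 replicate 1. The log2 difference was 1.32 ± 0.492 (SE, adjusted p = 0.879) for Th17 minus Th0, and 0.66 without Th0 replicate 1.

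The host showed a clearer separation. B4galt1 measured 7.72, 7.70, 7.48 and 8.03 in Th17 cultures, 7.08, 6.94 and 6.93 in Th2 cultures, and 6.25, 6.97 and 6.28 in Th0 cultures. Every Th17 array was above every Th2 and Th0 array. The log2 difference of Th17 minus Th0 was 1.23 ± 0.199 (SE), with an adjusted p of 0.0532 that just missed the threshold. For Th17 minus Th2 it was 0.75 (adjusted p = 0.418), beside 1.20 for Mir5123 (adjusted p = 0.733).

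**Figure D3:**
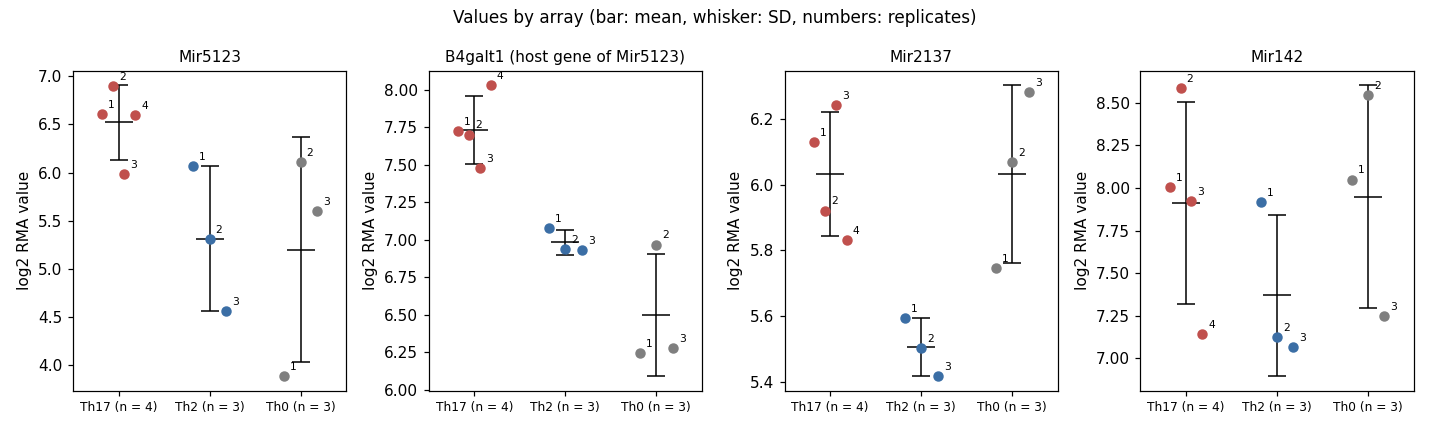
Log2 values (y axes, each panel with its own range) of Mir5123, its host gene B4galt1, Mir2137 and Mir142 by array for Th17 (n = 4), Th2 (n = 3) and Th0 (n = 3), with the group mean as a bar and the SD as a whisker. All Th17 points of B4galt1 lie above 7.4 and all others below 7.1, and the Th2 points of Mir2137 lie below all other points of that panel.

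Of 63 measured genes on a list of microRNAs known in T cells, 7 reached the mean of 4.5: Mir17, Mir18, Mir20a, Mir142, Mir15a, Mir181c and Mir210. The list held 91 names, some of them alternative names of the same gene. Names that no probe set of a single symbol carried, among them Mir155 and Mir21, were not analysed here. It was drawn up with earlier results of these data known. Mir142, a microRNA gene of blood cells that mature T cells express at high level, measured 8.01, 8.58, 7.92 and 7.14 in Th17 cultures, 7.92, 7.12 and 7.07 in Th2 cultures, and 8.05, 8.55 and 7.25 in Th0 cultures. The 3 arrays that stood apart on the first component and Th0 replicate 3 were the 4 lowest. Th2 minus Th0 was -0.58 ± 0.398 (SE, adjusted p = 0.846) with all arrays and -0.03 without the 3 arrays, and Th17 minus Th0 was -0.03.

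Mir15a, whose mature strand is known to restrain cell cycle genes, measured 5.84, 5.79, 6.15 and 6.57 in Th17 cultures, 5.96, 7.23 and 6.12 in Th2 cultures, and 6.18, 6.37 and 6.14 in Th0 cultures. The groups overlapped, with Th2 replicate 2 the highest array, and the Th17 minus Th2 difference was -0.35 (adjusted p = 0.943). Its host Dleu2, a long non-coding RNA, measured 5.20, 5.18, 5.46 and 5.49 in Th17 cultures, 6.46, 6.56 and 5.66 in Th2 cultures, and 5.96, 6.14 and 5.39 in Th0 cultures. Every Th17 array of Dleu2 was below every Th2 array, with a log2 difference of -0.89 ± 0.244 (SE, adjusted p = 0.444). Mir16-1, which shares this transcript, had a mean of 3.11, under the threshold.

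Mir181c belongs to the miR-181 family, known for setting the sensitivity of the T cell receptor. It measured 5.55, 5.71, 5.33 and 6.17 in Th17 cultures, 4.89, 5.03 and 5.79 in Th2 cultures, and 5.13, 5.41 and 5.47 in Th0 cultures. The groups overlapped, and the differences were 0.35 for Th17 minus Th0, -0.10 for Th2 minus Th0 and 0.45 for Th17 minus Th2 (adjusted p = 0.999, 0.970 and 0.890). Mir210, which hypoxia is known to induce, measured 4.81, 4.52, 4.54 and 5.61 in Th17 cultures, 4.55, 5.01 and 4.85 in Th2 cultures, and 5.79, 4.38 and 3.63 in Th0 cultures. The Th0 arrays held both its highest and its lowest value, and its 3 differences lay between 0.07 and 0.27.

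The other 56 listed genes had means under 4.5, and the lowest adjusted p among them was 0.466, for Mir326 between Th17 and Th2 cultures. Mir326, which is known for promoting Th17 differentiation, averaged 2.59 in Th17, 3.33 in Th2 and 2.69 in Th0 cultures, a Th17 minus Th2 difference of -0.74. Mir23a came closest to the threshold at a mean of 4.34, with 4.59 in Th17, 4.55 in Th2 and 3.78 in Th0 cultures (Th2 minus Th0 0.77, adjusted p = 0.814). Mir27a, of the same cluster, averaged 3.38 in Th17, 4.02 in Th2 and 3.04 in Th0 cultures (Th2 minus Th0 0.98, adjusted p = 0.767).

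8 microRNA genes lie in an intron cluster of Sfmbt2, a Polycomb-group gene whose introns carry a large set of repeated microRNA genes in mice. They were Mir297a-4, Mir466b-2, Mir466h, Mir467c, Mir467e, Mir669a-3, Mir669c and Mir669m-1. The median of their values centred on each gene's mean was -0.44, 0.17, -0.11 and 0.86 in Th17 replicates 1 to 4, -0.56, -0.06 and 0.86 in Th2 replicates 1 to 3, and 0.28, -0.64 and -0.03 in Th0 replicates 1 to 3. The arrays at the top, Th17 replicate 4 and Th2 replicate 3, belong to different groups, and so do those at the bottom, Th2 replicate 1 and Th0 replicate 2.

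7 of the 8 Sfmbt2 cluster genes were highest on one of the top arrays and 7 were lowest on one of the bottom arrays. Their ranges over the 10 arrays ran from 1.13 for Mir466b-2 to 3.14 for Mir467e. Mir467e measured 6.44, 7.84, 6.68 and 8.38 in Th17 cultures, 6.42, 7.17 and 8.90 in Th2 cultures, and 7.41, 5.76 and 6.56 in Th0 cultures. The groups overlapped widely, and 0.793 was the lowest adjusted p of the 8 genes in any comparison. The median difference of the cluster was 0.26 for Th17 minus Th0, 0.21 for Th2 minus Th0 and -0.02 for Th17 minus Th2. Without Th0 replicate 2 the first was -0.01 and without Th2 replicate 3 the second was -0.17.

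Sfmbt2 itself measured 3.46, 3.00, 2.88 and 3.54 in Th17 cultures, 3.54, 3.59 and 2.79 in Th2 cultures, and 2.81, 3.04 and 3.83 in Th0 cultures. These values lay under the mean of 4.5 used for signal and near the median of each array, so their order over arrays was not read. A further 14 microRNA genes within 10 kb of these 8 had means from 2.25 to 4.49, below the threshold.

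The 70 genes varied more between replicates than other genes with signal. The SD within groups was above 0.5 for 31 of them (44.3%), against 21.4% of all genes with a mean of 4.5 or more, and its median was 0.47 against 0.339. Mir449b varied least, with a range of 0.41 over the 10 arrays (10.54, 10.55, 10.33 and 10.43 in Th17, 10.45, 10.50 and 10.74 in Th2, and 10.54, 10.41 and 10.53 in Th0 cultures). Its neighbours within 10 kb, Mir449a and Mir449c, had means of 3.51 and 2.59, under the threshold, and the source of the high Mir449b signal was not tested. Mir101c varied most, with a range of 5.34. It measured 6.22, 7.90, 6.55 and 9.09 in Th17 cultures, 3.75, 7.71 and 8.69 in Th2 cultures, and 8.38, 5.07 and 7.46 in Th0 cultures. Both genes were picked after their values were seen. The spread of Mir101c within each group was wider than any difference between groups, the largest being 0.73 for Th17 minus Th2 (adjusted p = 0.980).

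The genes Mir680-1, Mir680-2 and Mir680-3, which share a mature strand, ordered the arrays in a like way and were also picked after their values were seen. Mir680-1 measured 4.49, 5.77, 5.15 and 7.78 in Th17 cultures, 4.21, 6.71 and 7.66 in Th2 cultures, and 6.48, 4.45 and 6.49 in Th0 cultures. Mir680-2 measured 8.39, 9.56, 8.79 and 10.43 in Th17, 8.22, 9.42 and 10.13 in Th2, and 9.74, 8.73 and 9.71 in Th0 cultures. Mir680-3 measured 3.95, 4.32, 4.01 and 6.14 in Th17, 4.02, 4.28 and 5.74 in Th2, and 5.34, 3.98 and 4.87 in Th0 cultures. Th17 replicate 4 and Th2 replicate 3 were the top arrays of all 3 genes. Their group differences stayed between -0.40 and 0.39.

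This order of arrays was common among the 70 genes. 45 of them (64.3%) were highest on Th17 replicate 4, Th2 replicate 2 or Th2 replicate 3, against 28.4% of all genes with a mean of 4.5 or more. These are the arrays that stood apart and had the lowest means of T cell identity genes. The excess lay on Th17 replicate 4 (37.1%, against 6.38%) and Th2 replicate 3 (15.7%, against 3.43%). Th2 replicate 2 went the other way, with 11.4% against 18.6%. The array median over all probe sets moved with some of the genes. For 8 of the 70 (11.4%, against 0.729% of genes with signal) the 3 highest arrays were the 3 with the highest array medians, Th17 replicate 4, Th2 replicate 3 and Th0 replicate 1. Th0 replicate 1 did not share this rank more widely: it was the highest array for 2 of the 70 genes and the lowest for 12, as many as Th0 replicate 2. For 11 (15.7%, against 1.13%) the 2 lowest arrays were the 2 with the lowest array medians, Th2 replicate 1 and Th0 replicate 2. Mir101c and Mir297a-4 met both descriptions. The part of the array median and of RNA quality in these values was not tested.

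**Figure D4:**
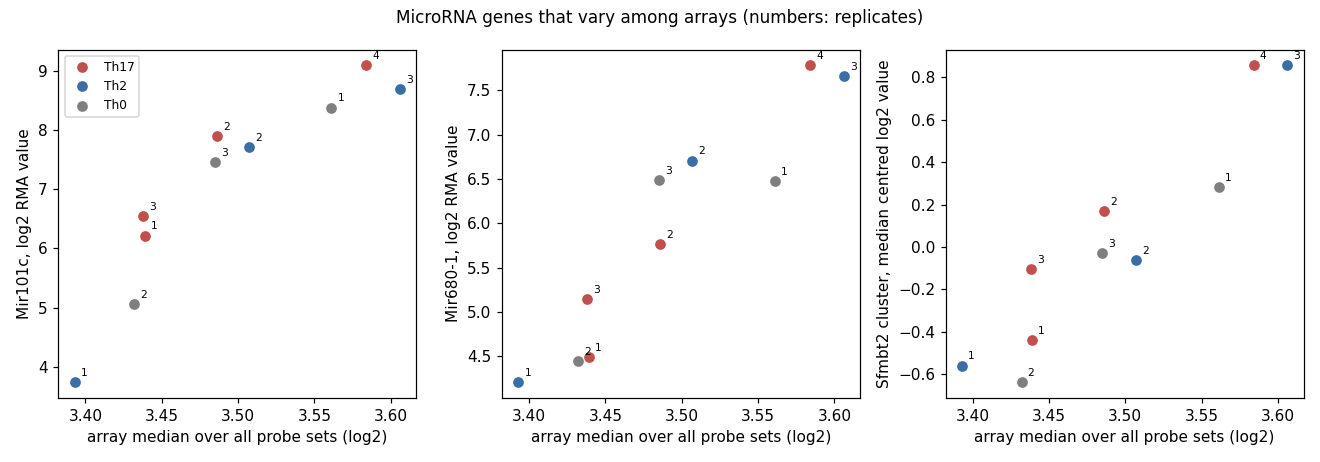
Log2 value of Mir101c and Mir680-1 and the median centred value of the 8 Sfmbt2 cluster genes (y axes) against the array's median over all probe sets (x axes, log2), with 1 point per array, coloured by group and numbered by replicate. In all 3 panels Th17 replicate 4 and Th2 replicate 3 lie at the upper right, and Th2 replicate 1 and Th0 replicate 2 at the lower left.

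Mir103-2 followed another set of arrays and was picked after its values were seen. It measured 5.66, 6.63, 7.64 and 6.21 in Th17 cultures, 6.23, 6.08 and 4.85 in Th2 cultures, and 7.34, 6.22 and 6.02 in Th0 cultures. Its 3 highest arrays, Th17 replicates 2 and 3 and Th0 replicate 1, were those with high basophil and mast cell markers, and the part of such cells in its values was not tested. The difference of Th2 minus Th0 was -0.81 (adjusted p = 0.832).

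**Figure D5:**
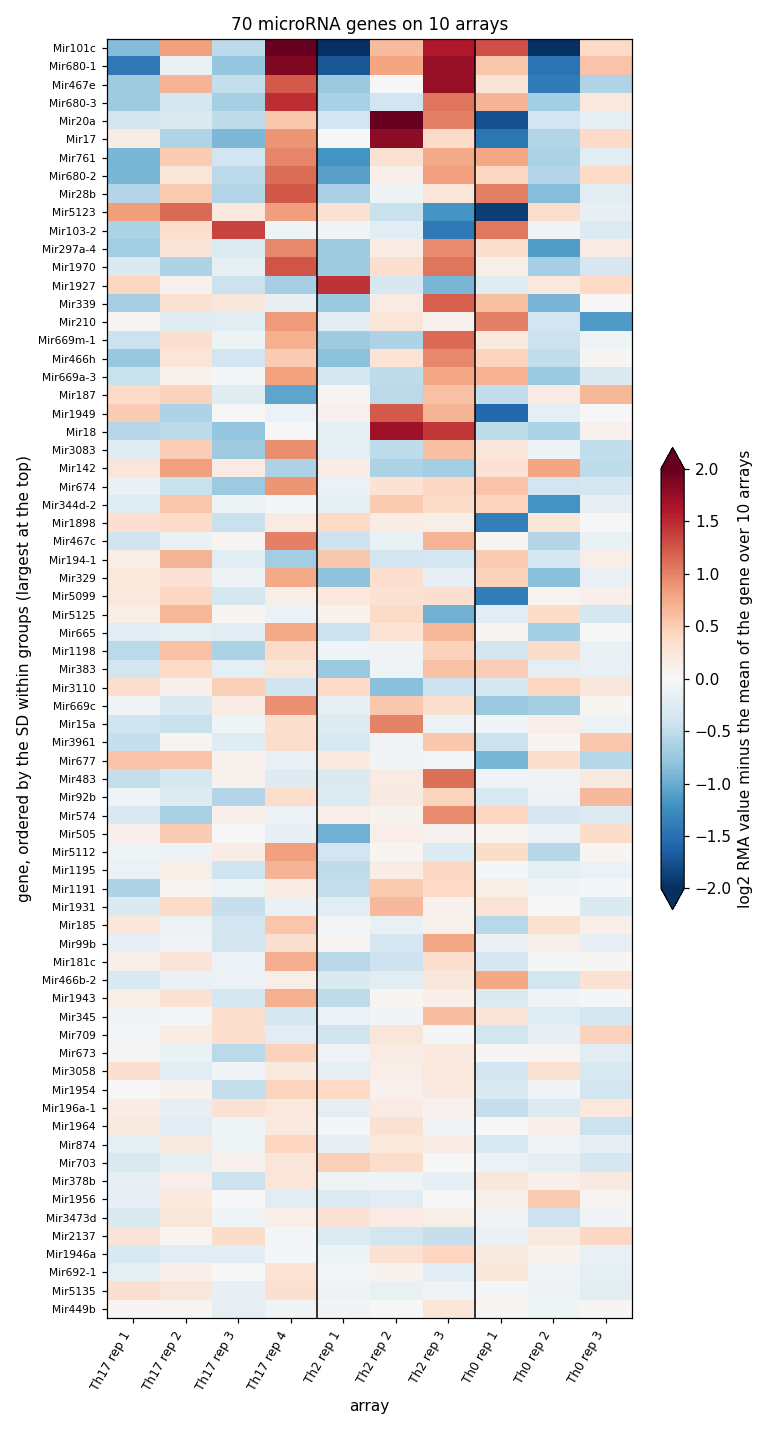
Log2 value minus the gene's mean over 10 arrays (colour, limited to 2 in either direction) for the 70 microRNA genes (rows, ordered by the SD within groups, largest at the top) on 10 arrays (columns, by group). The top rows alternate between high and low arrays inside each group, and no block of rows separates Th17, Th2 and Th0.

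Of the 55 genes whose strand was known, 23 lay inside a host gene on the same strand, and 22 of the hosts were measured. The other 15 of the 70 genes, among them the 8 in Sfmbt2, were not searched for a host in this way. None of the 22 passed the test in any comparison, and B4galt1 had the lowest adjusted p. Tmem184b, a membrane protein gene that hosts Mir1943, measured 7.04, 6.92, 6.82 and 6.70 in Th17 cultures, 6.26, 5.21 and 4.74 in Th2 cultures, and 5.09, 6.05 and 5.74 in Th0 cultures. Every Th17 array was above all others, with a log2 difference of 1.47 ± 0.326 (SE, adjusted p = 0.256) for Th17 minus Th2 and 1.24 (adjusted p = 0.483) for Th17 minus Th0. Mir1943 overlapped between the groups at 5.87, 6.03, 5.38 and 6.45 in Th17, 5.23, 5.78 and 5.84 in Th2, and 5.45, 5.67 and 5.71 in Th0 cultures, and its own Th17 minus Th2 difference was 0.32.

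None of the 23 measured genes of the microRNA pathway passed the test in any comparison, with median differences of 0.01 for Th17 minus Th0, 0.02 for Th2 minus Th0 and 0.01 for Th17 minus Th2. Dicer1, the enzyme that cuts the hairpin, measured 6.69, 6.97, 6.80 and 6.60 in Th17 cultures, 6.97, 6.92 and 6.65 in Th2 cultures, and 6.67, 6.63 and 6.88 in Th0 cultures. The groups overlapped. Drosha, which cuts the primary transcript, differed by -0.48 between Th2 and Th0 (adjusted p = 0.803). It was lowest on the arrays that stood apart, with 4.82 and 5.01 on Th2 replicates 3 and 2 and 5.225 on Th17 replicate 4. Its highest value, 5.86, was on Th2 replicate 1. Ago2, an Argonaute protein, differed by -0.13 between Th17 and Th0 and by 0.17 between Th2 and Th0.

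The genes at the threshold showed no separation either. Mir677 had the largest difference of these, 0.66 ± 0.28 (SE, adjusted p = 0.931) for Th17 minus Th0, with 5.12, 5.12, 4.64 and 4.40 in Th17 cultures against 3.64, 4.87 and 3.99 in Th0 cultures. The other 35 of the 70 genes, not described one by one above, had Th17 minus Th0 differences between -0.26 and 0.48, Th2 minus Th0 differences between -0.40 and 0.59, and Th17 minus Th2 differences between -0.62 and 0.50. None of these 35 was free of overlap in any comparison, and their lowest adjusted p was 0.728.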

How the data were processed

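Per the labels' protocols, RNA was treated with DNase, amplified by a whole-transcriptome kit and labelled with biotin, and each sample has 1 array. The deposited values are on a log2 scale and were made by the authors with RMA (a method that corrects background, applies quantile normalization and summarises probes), using Affymetrix Expression Console 1.3.0.187, per the submitters' processing notes. That normalization acts on probes, and a shift shared by most genes would be removed. The interquartile range of probe set values still differed between arrays, from 1.953 to 2.415. No source used here states the genome build, and coordinates are left out. Values for 41345 probe sets lay between 1.49 and 13.8. The platform's probe table gave 1 symbol for 23521 and several for 1814, which were left out (136 of them name a microRNA gene), and 16010 were not in it. With the highest probe set per gene, 22180 genes remained, of which 1 of the 70 had more than 1 probe set.

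The 3 group means were fitted to all genes and 10 arrays (7 residual degrees of freedom) with limma 3.58.1 in R 4.3.3 (lmFit and eBayes). Two-sided p-values were adjusted over all genes by the Benjamini-Hochberg method, with calls made under 0.05. Differences are of mean log2 values, with the moderated SE, and errors of means are SDs. The number of arrays limits the precision. The fit was tested on simulated data.

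Genes named are those called, those with the largest differences without overlap (3 per direction and comparison), those on the list known in T cells, those in clusters (within 10 kb in the RefSeq gene table), and those at the threshold. Others were picked after their values were seen, among them host genes. The microRNA genes, lists and alternatives were chosen with earlier results of these data known. Host genes are those that contain the microRNA gene on the same strand in that table. Sequences come from RefSeq (GRCm38.p6). Replicate numbers, by title and by description, were checked for pairing, and neither set had every pair correlated above 0.1, so no pairing was used.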

Additional observations from a re-analysis of the deposited data

Results flagged for a closer look

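A single Th17 array lay far from the other Th17 arrays for 2 of the 70 microRNA genes. Mir665 measured 5.32 on Th17 replicate 4, against 4.35 to 4.39 on the other 3 Th17 arrays. Mir680-3 measured 6.14 on the same array, against 3.95 to 4.32. The distance to the nearest array was 0.959 and 0.833 of the whole range of the group, above Dixon's critical value for a group of 4. Chance alone flags about 1 in 20 groups, and 70 were tested. Groups of 3 were not tested.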

How the results depend on the processing

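The number of arrays limits every comparison, and probe signal over background is not given in the deposited table. The threshold set the number of genes at 70, 92 with a mean of 4 or more and 48 with a mean of 5 or more. The count of microRNA genes called was 0 in every setting except array weights (1, Th17 against Th2) and the fit without Th2 replicate 1. Leaving out each array in turn gave 0 to 0 calls for Th17 against Th0, 0 to 2 for Th2 against Th0 and 0 to 1 for Th17 against Th2. It gave 0 to 7, 8 to 24 and 1 to 10 microRNA genes without overlap (0 to 10%, 11.4 to 34.3% and 1.43 to 14.3%, against 7.57 to 16.4%, 8.43 to 30.1% and 5.6 to 21.6% of all genes), and medians of 0.02 to 0.24, -0.02 to 0.32 and -0.15 to 0.12, in the same order of comparisons. Over all genes it gave 2 to 36, 0 to 431 and 3 to 298 calls.

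Without Th2 replicates 2 and 3 and Th17 replicate 4 the median was -0.11 for Th2 minus Th0 and 0.17 for Th17 minus Th2, and genes without overlap numbered 1 (Th17 against Th0), 27 (Th2 against Th0) and 36 (Th17 against Th2), with a single Th2 array left, against 13.1%, 50.1% and 53.7% of all genes. Without Th0 replicate 1 and Th17 replicates 2 and 3 those numbers were 13, 13 and 7, against 34.8%, 16.6% and 15.6% of all genes. With each array centred on its median, 1 gene was free of overlap between Th17 and Th0 (1.43%, against 7.01% of all genes). Between Th17 and Th2 it was 3 genes (4.29%, against 5.41%). Over all genes, Th17 against Th0 had 23 calls, 4 with centred arrays and 60 with array weights. Th17 against Th2 had 17, 26 without genes under 4.5 and 330 with array weights.

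By title, replicates share only a number: the correlations of deviations within 9 same-numbered pairs ran from -0.309 to 0.296, and 1 of 10 arrays correlated best with its own number. With the replicate number as a block, 8 genes were called between Th17 and Th0, 11 between Th17 and Th2 and 0 between Th2 and Th0, none of them a microRNA gene, and the medians were 0.03, -0.14 and 0.14. By the descriptions, Th2 replicate 3 shares number 4 with Th17 replicate 4, another array that stood apart, and these correlated at 0.494, the highest of 33 pairs between groups. The 8 pairs by those numbers ran from -0.291 to 0.494. The block with those numbers, added after seeing the data, called 5, 5 and 0 genes in the same order of comparisons and no microRNA gene. It turned Mir142 for Th17 minus Th0 to 0.13 and Mir210 for Th2 minus Th0 to -0.211.

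Several uncalled differences changed sign, and the cause was not tested. Mir142 for Th17 minus Th0 was 0.223 with the block, 0.225 with array weights and 0.223 without the 3 arrays that stood apart. Mir210 for Th17 minus Th2 was -0.183 with the block and -0.188 with array weights, and for Th2 minus Th0 -0.0462 without the 3 arrays. Mir15a for Th2 minus Th0 was -0.265 without them, and Mir17 for Th17 minus Th0 was -0.0248 with array weights. Mir5123 for Th2 minus Th0 was -0.129 with array weights and -0.543 without Th0 replicate 1 and Th17 replicates 2 and 3. Leaving out 1 array gave -0.384 to 0.264 (Mir142), -0.0139 to 0.897 (Mir17), -0.276 to 0.0979 (Mir18) and -0.211 to 0.865 (Mir210) for Th17 minus Th0. For Th2 minus Th0 it gave -0.187 to 0.444 (Mir15a), -0.376 to 0.0743 (Mir181c), -0.276 to 0.8 (Mir210) and -0.543 to 0.57 (Mir5123), and for Th17 minus Th2 -0.583 to 0.0479 (Mir15a) and -0.183 to 0.181 (Mir210).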
